A study of Glycine max with 5 samples.

Results

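The sites described here are the pseudouridine (Ψ) sites of soybean shoot mRNA whose neighbouring base on the 5′ side is G. They were chosen from the list of called sites by sequence alone: each site comes with a 21-character window in which the site is character 11, and a site was taken when character 10 was G. The rule found 252 of 1347 sites (18.7%, 95% Wilson interval 16.7 to 20.9%). They lay on all 20 chromosomes, with 5 to 19 sites each, 116 of them on plus strands and 136 on minus strands.

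Ψ was measured by BID-seq in poly(A)-enriched RNA from shoots of young, soil-grown Glycine max plants of the cultivar Williams 82 (W82). All libraries shared this genotype and tissue, with no mutant or treatment of the plants. The only groups were 3 libraries treated with bisulfite (treated) and 2 untreated libraries (input). The list does not state whether its covering reads come from treated libraries alone, which bears on every read count, gap count and counting interval below. It held 1 combined value per site, so no spread between plants could be given, and every interval below describes counting error within 1 site or spread between sites. The tissue label was not checked against marker genes, because the expression values were not used here.

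Ψ is an isomer of uridine made after transcription by pseudouridine synthases. Stand-alone enzymes recognise the bases around the target uridine, the shape of the RNA, or both, while H/ACA ribonucleoproteins are led to their targets by guide RNAs. In BID-seq, bisulfite forms an adduct with Ψ that makes reverse transcriptase skip the base, so the site appears as a gap (a deletion) in the read. The gap ratio is the share of reads across the site that carry the gap, and the Ψ fraction is the share of modified transcripts that a calibration curve assigns to that gap ratio in its sequence context.

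GΨ sites were followed by G in 143 cases (GΨG, 56.7%, interval 50.6 to 62.7%), by C in 82 (GΨC, 32.5%), by A in 21 (GΨA, 8.33%) and by U in 6 (GΨU, 2.38%). Among the 1095 sites with another base before Ψ the order was the other way round, with C after Ψ in 67.5% and G in 23.4%. The share with G after Ψ was 33.4 percentage points higher for GΨ sites (Newcombe 95% interval 26.7 to 39.8 points). The windows that carry the patterns described below are printed first, as the list gives them, 5′ to 3′ on the strand of the RNA, with T for U and coordinates on Glycine_max_v2.1.

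The first set is shown because 13 GΨG windows could be folded into a hairpin with Ψ as the second base of a loop of 4 bases. Capitals mark the loop, characters 10 to 13, and the bases on either side pair with each other without a break, outward from the loop.
chr17:38559932-38559952, plus strand: gttgggcctGTGAaggcccaa
chr13:37376297-37376317, plus strand: ccggcgacgGTGGcgtcgccg
chr16:30280615-30280635, minus strand: agcgcggcgGTGAcgccgcgc
chr6:38472558-38472578, plus strand: gaagcggccGTGGggccgcta
chr8:10641554-10641574, plus strand: agggcttcgGTGAcgaagctc
chr7:4669679-4669699, minus strand: ttgctgccaGTGAtggcagaa
chr2:4441849-4441869, minus strand: gttcagcctGTGGaggctgcc
chr2:42722995-42723015, minus strand: ctgtggtgcGTGAgcaccgac
chr6:4520645-4520665, plus strand: gtggcaccgGTGAcggtgacg
chr17:1546226-1546246, minus strand: tttgaagccGTGAggctttga
chr20:43554133-43554153, minus strand: gctggctccGTGAggagcagc
chr16:3460855-3460875, minus strand: ctgatggtgGTGAcaccaatg
chr11:2349273-2349293, minus strand: gtgcccacgGTGAcgtggcat

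The second set is shown because 20 GΨG sites shared a stretch of 7 bases. These are the 8 sites with the most reads among those that read GGTGTAG, in capitals, with Ψ at the third letter.
chr8:42074660-42074680, minus strand: gtctagctGGTGTAGagatga
chr19:44843798-44843818, plus strand: tgaagatgGGTGTAGaagtgt
chr5:32235771-32235791, minus strand: aattacagGGTGTAGgctctg
chr8:4900475-4900495, plus strand: tccagaagGGTGTAGagttca
chr7:35301919-35301939, minus strand: tccagaagGGTGTAGagttca
chr3:40122458-40122478, plus strand: tgaagatgGGTGTAGaagtat
chr10:41049393-41049413, minus strand: tgtctgttGGTGTAGacaagc
chr5:32235612-32235632, minus strand: atgaaggaGGTGTAGgtagtg

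The third set shows GΨC sites that read TGGTC (capitals, Ψ at the fourth letter), the 6 with the most reads of the 29 such sites.
chr4:1271950-1271970, minus strand: gtgtaggTGGTCtggtcattt
chr6:1267113-1267133, minus strand: ttgtaggTGGTCtggtcattt
chr17:7996297-7996317, plus strand: gtggagtTGGTCcagcaaatg
chr3:44335268-44335288, minus strand: agcggcaTGGTCctcggcctg
chr6:46951177-46951197, minus strand: tcagaaaTGGTCcaccggggt
chr5:2420652-2420672, plus strand: ttgaagcTGGTCggtgagtac

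The fourth set shows the 7 GΨA sites that read AGGTA (capitals, Ψ at the fourth letter).
chr1:11533859-11533879, plus strand: ttgagaaAGGTAtgacttaat
chr20:18969110-18969130, minus strand: cagaaaaAGGTAcaacaggta
chr20:47495350-47495370, plus strand: gttcaatAGGTAataagtact
chr3:5474635-5474655, plus strand: tcttcctAGGTAtactggcag
chr5:41804632-41804652, minus strand: taaaaaaAGGTAtctgccttt
chr4:2849214-2849234, plus strand: tgtttagAGGTAtgcttcgaa
chr5:33280069-33280089, plus strand: ccggagcAGGTAcccctttcc

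Read depth differed sharply between the subgroups. GΨG sites had a median of 523 reads (range 5 to 6165) and GΨC sites 423.5 (7 to 4213), while GΨA sites had 10.0 (5 to 894) and GΨU sites 16.0 (12 to 31). The reads of GΨG and GΨC sites did not differ beyond the spread between sites, with a ratio of 0.90 (95% interval 0.61 to 1.32, n = 143 and 82 sites, p = 0.59, least squares fit of log10 reads on 3-base context). Among sites with a fraction of at least 20% (n = 132 GΨ sites) GΨG had fewer reads, with a log10 difference of −0.26 (p = 0.017). Of the GΨA sites 17 of 21 (81.0%) had under 50 reads, and all 6 GΨU sites did, against 10 of 143 GΨG sites (6.99%) and 4 of 82 GΨC sites (4.88%).

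The median gap ratio was 5.79% in GΨG (range 2.30 to 116.7%), 6.21% in GΨC (2.26 to 71.4%), 50.0% in GΨA (4.76 to 100%) and 45.8% in GΨU (20.0 to 95%). The value over 100% came from 1 GΨG site, at position 45382850 of chromosome 2, where 7 gapped reads were listed against 6 covering reads. Median Ψ fractions were 15.7%, 24.1%, 87.1% and 97.9% in the same order. These levels moved with depth: the list keeps only sites that passed the authors' filter, and the lower edge of the gap ratio fell as reads increased. Subgroups were therefore compared at equal depth.

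**Figure D1:**
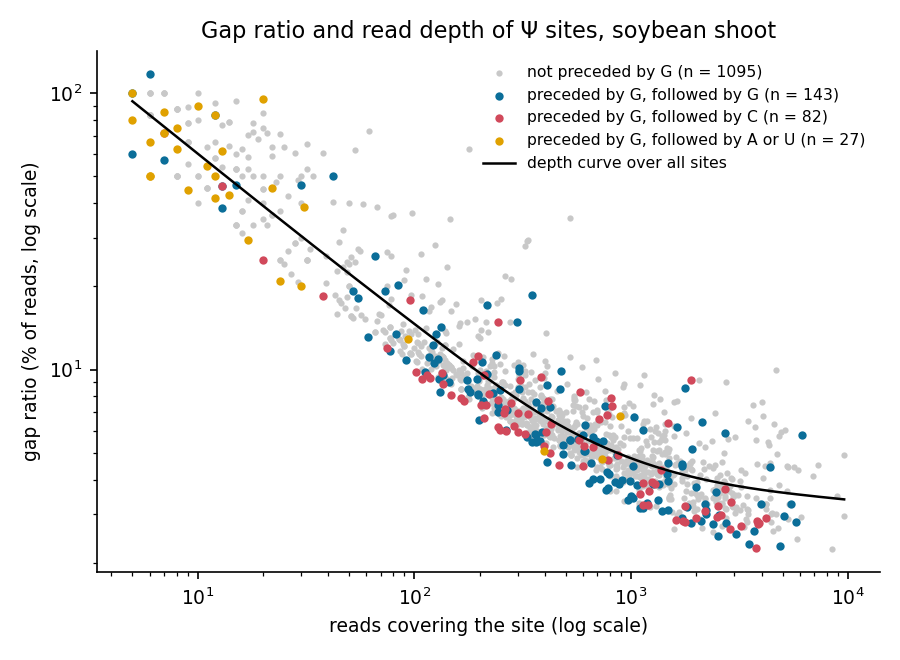
Gap ratio (percent of reads, log scale) against reads covering the site (log scale), 1 point per site, with colours for the base after Ψ in sites preceded by G and grey for the 1095 other sites. The black line is the depth curve fitted over all 1347 sites: the GΨA and GΨU points lie at the left, at few reads and high gap ratios, while GΨG and GΨC points follow the band of the other sites, mostly below the line.

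At the same number of reads, listed GΨ sites carried fewer gaps than the rest of the list. Of the GΨ sites 69 of 252 (27.4%, interval 22.2 to 33.2%) lay above the depth curve, against 39.9% of all 1347 sites. In the fit with read depth as a spline, their gap ratio was 0.89 times that of other sites (95% interval 0.85 to 0.92, log2 difference −0.17, SE 0.028, n = 252 and 1095 sites, adjusted p = 3.06e-09). The difference in Ψ fraction was −4.73 percentage points (interval −6.01 to −3.45 points, n = 252 and 1095 sites, adjusted p = 4.11e-12). Both adjusted p-values are Benjamini-Hochberg values over the 12 contrasts, from a least squares fit over all sites with HC3 errors. The fraction is assigned by context, so differences in fraction between contexts, here and below, cannot be told apart from the calibration. Among sites with a fraction of at least 20% the gap ratio call was lost (n = 132 GΨ sites, log2 difference −0.078, adjusted p = 0.12), as it was with no depth term (−0.19, adjusted p = 0.067). The cut at 20% acts on a value derived from the gap ratio. The lowest listed gap ratio at 51 to 200 reads was 6.57% in GΨG and 7.69% in GΨC, against 7.82% in other sites. At 201 to 500 reads these were 4.62 and 4.54% against 5.25%, and at 501 to 1000 reads 3.39 and 4.50% against 3.34%. Above 1000 reads they were 2.30 and 2.26% against 2.25%. The part of the authors' filter in the difference was not tested.

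GΨG and GΨC differed in the calibrated fraction but not, beyond the spread between sites, in the gap ratio. The gap ratio of GΨG was 1.07 times that of GΨC at equal depth (interval 0.99 to 1.15, n = 143 and 82 sites, adjusted p = 0.094), whereas the difference in Ψ fraction was −4.33 points (interval −6.55 to −2.1 points, adjusted p = 0.00028). The raw medians by depth show the same order of fractions in every class above 20 reads. At 1 to 20 reads it was reversed, with 91.5% in 8 GΨG and 85.5% in 3 GΨC sites. At 21 to 50 reads the median fractions were 76.8% in 2 GΨG sites and 87.7% in 1 GΨC site. At 51 to 200 reads they were 29.3% in 28 GΨG and 34.5% in 13 GΨC sites. Between 201 and 500 reads, 32 GΨG sites had a median gap ratio of 7.54% and a median fraction of 19.4%, and 26 GΨC sites had 6.92% and 27.0%. Between 501 and 1000 reads the medians were 4.57% and 11.9% in 26 GΨG sites and 5.55% and 21.2% in 11 GΨC sites. Above 1000 reads they were 3.29% and 9.71% in 47 GΨG sites and 3.15% and 12.5% in 28 GΨC sites. Among sites with a fraction of at least 20% (n = 132 GΨ sites), GΨG had the higher gap ratio (log2 difference 0.20, adjusted p = 0.025) and the fractions were no longer separated (−1.87 points, adjusted p = 0.34). This cut acts on a value assigned from the gap ratio by context. It therefore cannot decide whether the gap ratios of the 2 contexts differ. With no depth term the fraction call was also lost (−2.39 points, n = 143 and 82 sites, adjusted p = 0.36). Only in the first and last of the 3 depth classes above 200 reads did the median gap ratio of GΨG exceed that of GΨC, while the median fraction was lower in all 3.

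The base before Ψ was then compared with the base after it held fixed. GΨG had 0.92 times the gap ratio of UΨG (n = 143 and 229 sites, interval 0.87 to 0.98, adjusted p = 0.0070), with a difference in Ψ fraction of −2.71 points (interval −4.36 to −1.06 points, adjusted p = 0.0022). GΨC had 0.84 times the gap ratio of CΨC (n = 82 and 511 sites, interval 0.79 to 0.89, adjusted p = 1.08e-08), but the fractions of the 2 contexts were not separated, at −0.50 points (interval −2.38 to 1.38 points, adjusted p = 0.66). Against UΨC (n = 200 sites), GΨC was lower in both, with 0.81 times the gap ratio (interval 0.75 to 0.87, adjusted p = 2.61e-08) and a difference in fraction of −10.5 points (interval −13.2 to −7.90 points, adjusted p = 1.30e-13). On the linear scale the gap ratio call of GΨG against UΨG was lost (−0.86 points, n = 143 and 229 sites, adjusted p = 0.23), and among sites with a fraction of at least 20%, a filter on a value derived from the gap ratio, it turned to +0.034 log2 units and +0.78 points, neither past the threshold. The gap ratio call of GΨC against CΨC was lost with no depth term (log2 difference −0.11, n = 82 and 511 sites, adjusted p = 0.33).

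**Figure D2:**
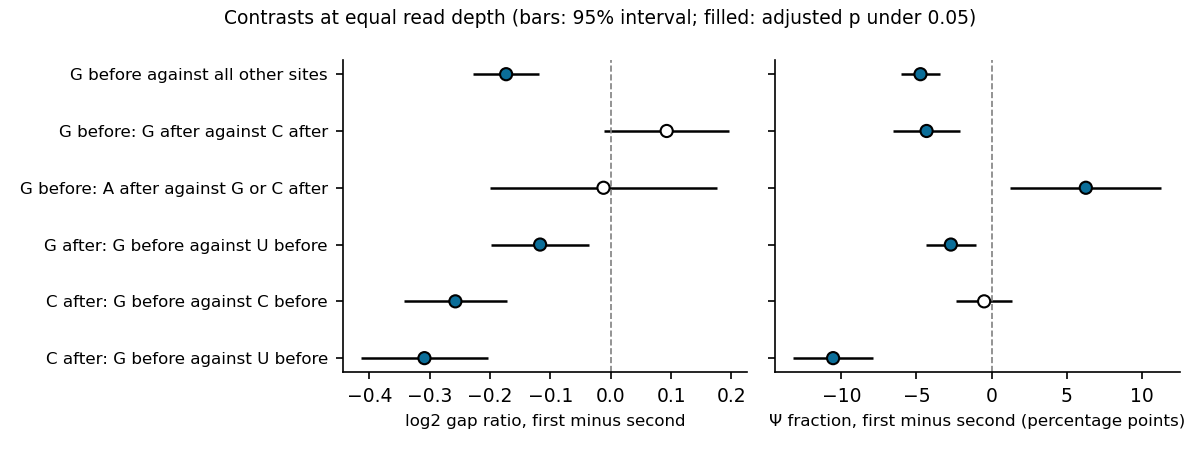
Differences at equal read depth for the 6 contrasts, as log2 gap ratio (left) and Ψ fraction in percentage points (right), first group minus second, with 95% intervals as bars and filled points where the adjusted p was under 0.05. Filled points lie left of 0 except for the fraction of GΨA against GΨG and GΨC together, at 6.26 points.

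GΨA sites had by far the higher raw values, but their gap ratio was not separated from the rest at equal depth. It was 0.99 times that of GΨG and GΨC together (n = 21 and 225 sites, interval 0.87 to 1.13, adjusted p = 0.90), and the log2 difference of −0.012 became 0.20 with depth deciles in place of the spline and 2.51 with no depth term. Their Ψ fraction was 6.26 points higher in the spline fit (interval 1.24 to 11.3 points, n = 21 and 225 sites, adjusted p = 0.019), a call that was lost among sites with a fraction of at least 20% (4.50 points, adjusted p = 0.15) and was not checked at a minimum of 50 or 200 reads, where under 10 GΨA sites were left.

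Sites with a Ψ fraction over 50% made up 41 of the 252 GΨ sites (16.3%, interval 12.2 to 21.3%), against 20.6% of the whole list. They were 18 of 21 GΨA, 6 of 6 GΨU, 12 of 143 GΨG and 5 of 82 GΨC sites. Few reads lay behind them: 37 of the 41 (90.2%) had under 50. The other 4 are listed with characters 9 to 13 in capitals.
chr7:42047137-42047157, minus strand: gctgtgggAGTGCtggcagtg
chr17:2466592-2466612, plus strand: gctgtgggAGTGCtggcagtg
chr10:38976426-38976446, minus strand: cagagttgTGTAGgttatgat
chr13:22993688-22993708, minus strand: caatggagTGTCCtcttttca

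The first 2 of these, on chromosomes 7 and 17, had identical windows, with 17 gaps in 126 reads (13.5%, Wilson interval 8.60 to 20.5%) and 15 in 122 (12.3%, 7.59 to 19.3%), and fractions of 53.9% and 51.0%. The GΨA site on chromosome 10 had 12 gaps in 93 reads (12.9%, 7.54 to 21.2%) and a fraction of 69.6%. The GΨC site on chromosome 13 had 9 gaps in 75 reads (12%, 6.44 to 21.3%) and a fraction of 58.9%. The 4 gap ratios lay within each other's intervals while the fractions spanned 51.0 to 69.6%.

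The deposited fraction followed the gap ratio within 5-base contexts (characters 9 to 13). In all 31 of the 43 contexts that held more than 1 GΨ site, a higher gap ratio never came with a lower fraction. Reading each of the 18 contexts with at least 4 sites at a gap ratio of 5%, by interpolation, gave fractions from 9.27% in GGΨGU (23 sites) and 10.8% in CGΨGG (14 sites) to 26.3% in AGΨGC (4 sites) and 27.4% in AGΨGG (11 sites). GGΨCU stood at 11.6%, against 20.3% in GGΨCC and 20.8% in GGΨCG, so contexts that differed only in their last base could be assigned different or nearly equal fractions.

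**Figure D3:**
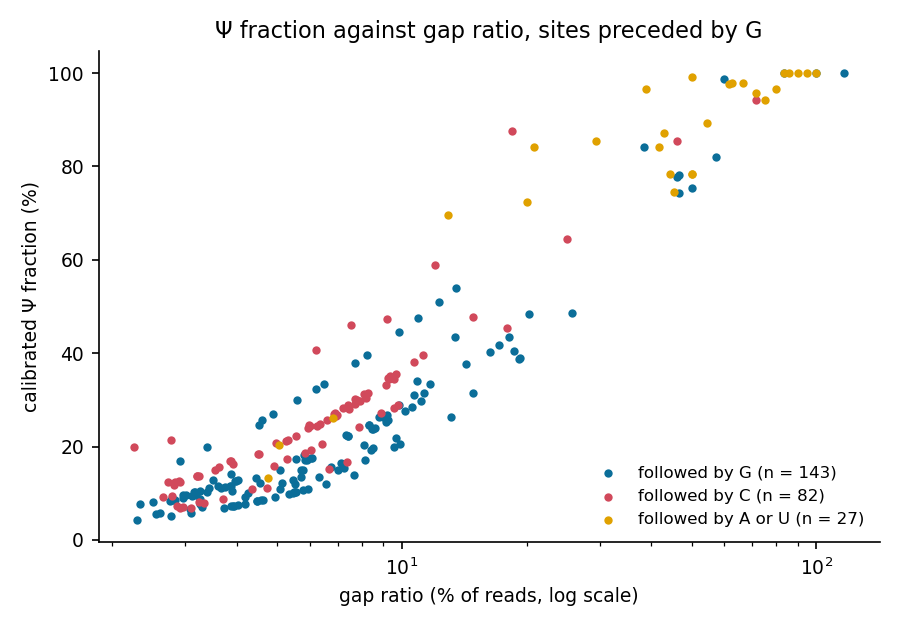
Calibrated Ψ fraction (percent) against gap ratio (percent of reads, log scale) for the 252 sites preceded by G, coloured by the base after Ψ. At a given gap ratio the points spread over several bands. In the 18 contexts with at least 4 sites, the fractions interpolated at 5% run from 9.27% in GGΨGU to 27.4% in AGΨGG.

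The same split appeared in the fit of the flanking bases. None of the 8 bases tested at characters 9 and 13 differed from the other GΨ sites in gap ratio (unadjusted p from 0.19 to 0.67, adjusted over 16 terms 0.37 to 0.67). In Ψ fraction 5 of the 8 passed the threshold. A at character 9 (n = 34 sites) was 10.5 points higher (interval 7.73 to 13.3 points, adjusted p = 4.40e-12). U at character 13 (n = 50 sites) differed by −5.90 points (interval −8.71 to −3.10 points, adjusted p = 0.00031). G at character 9 (n = 139 sites) differed by −3.51 points (adjusted p = 0.019), C at character 13 (n = 45 sites) by 3.80 points (adjusted p = 0.024) and G at character 13 (n = 109 sites) by 2.93 points (adjusted p = 0.039). At a minimum of 50 reads the call of G at character 9 was lost (n = 215 GΨ sites, adjusted p = 0.083) and C at character 9 was called (−5.36 points, adjusted p = 0.040). With 1 site per group of near-identical windows 3 of the 5 calls were left, and with depth deciles 2. The fraction is assigned by context, so these 5 differences and the calibration cannot be told apart.

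The bases around GΨ sites were also counted. G was at character 13 in 43.3% of GΨ sites against 15.9% of other sites (difference 27.4 points, Newcombe interval 20.97 to 33.9 points), and U in 19.8% against 49.9% (difference −30.0 points, interval −35.4 to −23.9 points). A at character 9 was in 13.5% against 5.48% (8.01 points higher, interval 4.04 to 12.9 points). In 20 of 76 comparisons of a base at a position the interval left out 0, and these intervals are not adjusted for their number. With G after Ψ held fixed, G at character 13 was in 51.0% of GΨG and 8.30% of UΨG sites (difference 42.8 points, interval 33.6 to 51.3 points), and G at character 8 in 26.6% and 59.4% (difference −32.8 points, interval −41.8 to −22.7 points). With C after Ψ held fixed, U at character 13 was in 19.5% of GΨC and 63.6% of CΨC sites (difference −44.1 points, interval −52.3 to −33.4 points). G at character 14 was in 40.2% and 76.1% of the same sites (difference −35.9 points, interval −46.4 to −24.4 points).

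GΨG and GΨC were compared in the same way. C was at character 16 in 34.3% of GΨG and 13.4% of GΨC sites (difference 20.9 points, interval 9.25 to 30.8 points), and C at character 13 in 12.6% and 29.3% (difference −16.7 points, interval −28.2 to −5.83 points). G directly before the GΨ pair was common in both, in 57.3% of GΨG (interval 49.1 to 65.2%) and 58.5% of GΨC (47.7 to 68.6%), and in 9 of 21 GΨA sites. These shares of GΨG and GΨC were near that of the other sites. G at character 9 was in 55.2% of all GΨ sites and 57.4% of other sites (difference −2.28 points, interval −9.10 to 4.42 points). In 9 of 72 comparisons of GΨG with GΨC the interval left out 0. Outside the 3 central bases the windows of GΨG were 57.0% G or C on average (SD 14.2), those of GΨC 52.6% (SD 13.6) and those of GΨA 37.3% (SD 15.4).

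Windows were searched for hairpins by looking for an unbroken stem of at least 5 Watson-Crick pairs around a loop of 3 to 8 bases that holds Ψ. This search and its limits were chosen after the windows had been seen. Such a stem was found in 18 of 143 GΨG windows (12.6%, interval 8.11 to 19.0%), 2 of 82 GΨC, 1 of 21 GΨA and 45 of 1095 other windows (4.11%, interval 3.09 to 5.45%). The other windows were uneven, with 20 of 200 UΨC (10%, interval 6.57 to 14.9%), 17 of 229 UΨG (7.42%, 4.69 to 11.6%) and 4 of 511 CΨC (0.783%). The intervals of UΨC and UΨG overlapped that of GΨG. Of the 18 GΨG windows 13 had one geometry, a loop of 4 bases with Ψ second. It was in 9.09% of GΨG sites (interval 5.39 to 14.9%), in 0 of the 109 other GΨ sites, in 1 of 229 UΨG sites (0.437%) and in 2 of 1095 other sites (0.183%). The difference between GΨG and UΨG was 8.65 points (interval 4.45 to 14.5 points). The interval takes no account of the choice of this geometry from the same windows. Loops of 4 bases with Ψ at any of their other places were found in 0 of 252 GΨ windows.

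**Figure D4:**
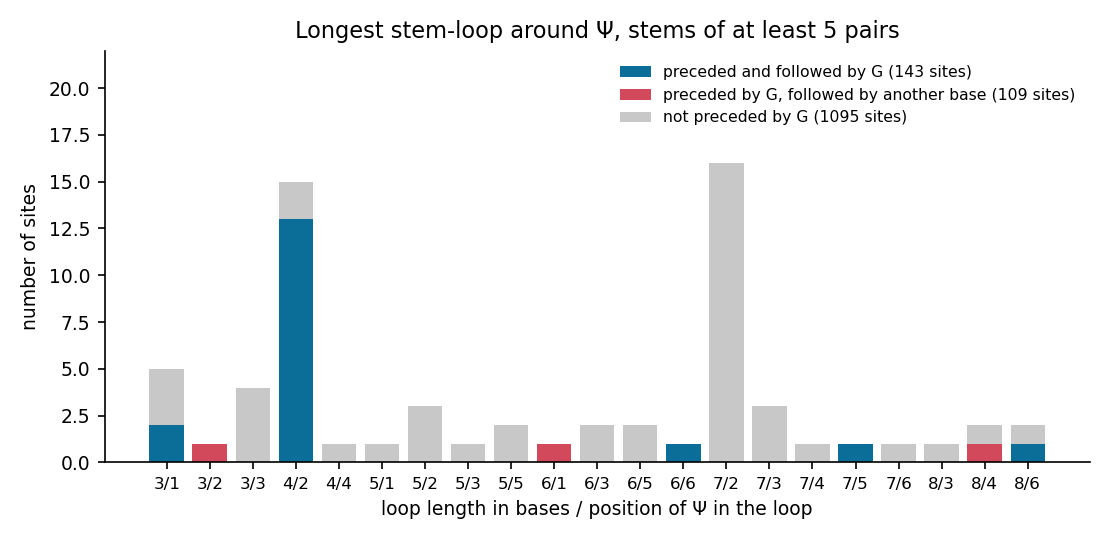
Number of sites whose window holds a stem of at least 5 pairs, by loop length and the position of Ψ in the loop, for the longest stem of each window. The bar for a loop of 4 bases with Ψ second holds 13 GΨG sites and 2 sites not preceded by G, while the bar for a loop of 7 bases with Ψ second holds 16 sites, none preceded by G.

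The loop read GΨGA in 10 of the 13 windows and GΨGG in 3. GΨGA belongs to the GNRA loops, a frequent and stable form of 4-base hairpin loop in many RNAs. Of the 27 GΨGA sites in the list 10 (37.0%, interval 21.5 to 55.8%) had this hairpin, against 3 of 73 GΨGG (4.11%, 1.41 to 11.4%), 0 of 43 GΨGC and GΨGU together (0 to 8.20%) and 0 of 15 UΨGA (0 to 20.4%). The pair that closes the loop was G with C in 6 windows, C with G in 4 and made of A and U in 3. Raising the minimum to 6 pairs left 7 GΨG windows and 0 of 1095 others. Counting wobble pairs gave 16 GΨG windows and 14 others (1.28%). The loop windows were richer in G and C, with a median of 66.7% outside the 3 central bases (range 44.4 to 88.9%) against 55.6% in the other GΨG windows, and the part of base composition in the count was not tested.

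The 13 hairpin sites were covered by 196 to 6165 reads (median 666), and 0 of them had under 50 reads. Their gap ratios ran from 3.87 to 14.8% (median 5.72%) and their Ψ fractions from 10.5 to 31.5% (median 14.96%). The other 130 GΨG sites had a median gap ratio of 5.84% and a median fraction of 17.1%, so the levels of the 2 sets overlapped. Above the depth curve lay 7 of the 13 hairpin sites and 37 of the 130 others, with 39.9% of the whole list above it. No test was made of this difference, since the set was picked after its values were known.

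The site with the most reads of all GΨ sites was in this set. At position 38559942 of chromosome 17 (plus strand), 357 of 6165 reads were gapped (5.79%, interval 5.23 to 6.40%), 1.64 times the depth curve, with a fraction of 14.96% and a stem of 8 pairs. The windows on chromosome 16 at 30280625 and chromosome 13 at 37376307 also held 8 pairs, the longest a window of this length allows. The first had 44 gaps in 297 reads (14.8%, interval 11.2 to 19.3%), 1.89 times the curve, and a fraction of 31.5%. The second had 26 in 305 (8.52%, interval 5.88 to 12.2%), 1.10 times the curve, and a fraction of 23.8%. The 10 shorter stems reached at most 8.16% gapped reads, a fraction of 17.2% and 1.43 times the curve. Among them the 6-pair window on chromosome 7 at 4669689 had 49 gaps in 1267 reads (3.87%, interval 2.94 to 5.08%), below the curve at 0.86 times.

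Of the 23 GGΨGU sites 20 continued as GGΨGUAG, and the base after that was A in 12 and G in 8. The letters GGTGTAG were found in 21 of the 1347 windows (1.56%), 20 of them with Ψ at the third letter, and their reverse complement in none. In yeast and human, the synthase PUS7 acts on the U before AG or AA in UNUAG and UNUAA. In the 20 GGΨGUAG windows the listed Ψ was the first U of such a stretch, UGUAG, and the U before AG was a listed site in 0 of the 20.

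GGΨGUAG sites had 198 to 4860 reads, gap ratios of 2.30 to 7.65% (median 4.61%) and fractions of 4.25 to 14% (median 8.55%). All 20 fractions were under 20%, as were all 23 of GGΨGU, 59.4% of GΨG and 35.9% of sites not preceded by G. At a gap ratio of 5% GGΨGU had the lowest fraction of the 18 contexts, so this count and the calibration cannot be told apart. Of the 20, 4 were above the depth curve (20.0%, interval 8.07 to 41.6%), an interval that includes the 39.9% of the whole list. The lowest fraction among all GΨ sites was in this set, on chromosome 8 at 42074670, with 112 gaps in 4860 reads (2.30%, interval 1.92 to 2.77%). The highest gap ratio of the set was on chromosome 7 at 3711795, with 28 gaps in 366 reads (7.65%, interval 5.35 to 10.8%) and a fraction of 14%. The 3 GGΨGU sites without AG had gap ratios of 2.78, 3.87 and 5.53%, inside the range of the others. At positions 32235622 and 32235781 of chromosome 5, both on the minus strand, 2 GGΨGUAG sites stood 159 nucleotides apart, with 3.92% of 842 and 4.59% of 1482 reads gapped.

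GΨC sites often had U at character 8, in 42.7% against 21.3% of CΨC sites (difference 21.4 points, interval 10.5 to 32.7 points). The letters TGGTC stood in 57 of 1347 windows (4.23%; reverse complement in 0.594%). In 29 windows they stood at the site, with Ψ directly before C. These 29 sites, on 14 chromosomes, had 115 to 2882 reads, gap ratios of 2.84 to 10.7% (median 5.93%) and fractions of 7.86 to 38.2% (median 22.2%), and 7 of them lay above the depth curve (24.1%, interval 12.2 to 42.1%, against 39.9% of the whole list). A fraction over 50% was found in 0 of the 29, against 5 of all 82 GΨC sites (6.10%) and 20.6% of the whole list. These shares are not at equal depth: 0 of the 29 had under 50 reads, while 37 of the 41 GΨ sites over 50% did.

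The 5 GΨG and 5 GΨC sites with the highest gap ratio at 200 reads or more are printed with characters 9 to 13 in capitals, to show how varied their flanks were.
chr16:30716394-30716414, plus strand: ataataagTGTGAgaggtggc
chr17:18270202-18270222, minus strand: gatcgggaGGTGGgcccgccg
chr16:30280615-30280635, minus strand: agcgcggcGGTGAcgccgcgc
chr3:33282500-33282520, minus strand: aagcaataTGTGGgcttgaat
chr18:56548535-56548555, plus strand: gagtagatGGTGCactcattg
chr5:1013621-1013641, plus strand: gtgattggGGTCGagaccgtg
chr2:47366647-47366667, minus strand: gacgctccTGTCAccgttagt
chr16:27109948-27109968, minus strand: ccagattgAGTCTggtcctct
chr19:19842-19862, minus strand: gtgtaccaCGTCCccaaagtt
chr14:3556262-3556282, plus strand: ggagacttGGTCCggtaccca

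The first GΨG site had 65 gaps in 349 reads (18.6%, interval 14.9 to 23.0%), 2.58 times the depth curve, and a fraction of 40.5%. The second had 37 in 216 (17.1%, 12.7 to 22.7%) and a fraction of 41.7%, and the third is the hairpin site on chromosome 16. The other 2 had 27 in 239 (11.3%, 7.88 to 15.9%) and 22 in 206 (10.7%, 7.16 to 15.6%). The interval of the first began at 14.9%, above the values of the last 2.

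Among GΨC sites the first had 36 gaps in 243 reads (14.8%, interval 10.9 to 19.8%) and a fraction of 47.8%. The site at position 19852 of chromosome 19 stood out for its depth, with 174 gaps in 1890 reads (9.21%, interval 7.98 to 10.6%), 2.24 times the curve, and a fraction of 47.4%. The remaining 3 had 20 in 209 (9.57%), 36 in 384 (9.38%) and 28 in 306 (9.15%), with fractions of 28.3, 35.0 and 33.3%. These 4 gap ratios near 9% were not distinguishable at their depth, although the fractions assigned to them ran from 28.3 to 47.4%.

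GΨA sites were few and shallow. The letters AGGTA stood in 19 of 1347 windows (1.41%; reverse complement in 0.668%), and in 7 of 21 GΨA windows they stood at the site. Introns of plant genes begin with GU, often with AG before it and A after it, but the sites were not placed on gene models here. The 7 sites had 5 to 22 reads and 3 to 10 gapped reads each. Their gap ratios ran from 44.4 to 100% with wide intervals: 5 gaps in 5 reads on chromosome 5 at 33280079 (100%, interval 56.6 to 100%), and 10 in 22 on chromosome 1 at 11533869 (45.5%, 26.9 to 65.3%). All 7 fractions were over 50%, against 20.6% of the whole list. Among all listed sites with 20 reads or fewer, the lowest fraction was 64.5%, in GΨC, and 68.1% in sites not preceded by G. At such depth the count does not set the 7 sites apart. Above the depth curve lay 3 of the 7 (42.9%), near the 39.9% of the whole list.

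The 3 GΨA and 3 GΨU sites with the most reads are printed with characters 9 to 13 in capitals, because they are the best measured of their context.
chr1:56563035-56563055, plus strand: ttgcctggTGTAAgcacaaac
chr6:9243517-9243537, plus strand: gagcaggtGGTATcgccggaa
chr11:116061-116081, minus strand: ttgcctggTGTAAgcacaaac
chr11:1391337-1391357, minus strand: atcatgatCGTTTgatcctcc
chr18:51624616-51624636, plus strand: taattaatAGTTAtggccagc
chr14:48005257-48005277, minus strand: gttgttgtTGTTGtatatgta

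The GΨA sites on chromosomes 1 and 11 had identical windows, with 61 gaps in 894 reads (6.82%, interval 5.35 to 8.67%) and 20 in 395 (5.06%, 3.30 to 7.69%). The site on chromosome 6 had 35 in 735 (4.76%, 3.44 to 6.55%). Their fractions of 26.1, 20.3 and 13.3% were far below the 87.1% median of GΨA. The GΨU sites had 12 gaps in 31 reads (38.7%, 23.7 to 56.2%), 6 in 30 (20.0%, 9.51 to 37.3%) and 19 in 20 (95%, 76.4 to 99.1%), and the interval of the last did not meet the others.

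Soybean is an ancient polyploid, and many genes have a close copy on another chromosome. Windows that differed at 3 or fewer of 21 positions formed 20 pairs of GΨ sites, with no larger group, so 40 of 252 sites (15.9%, interval 11.9 to 20.9%) had such a copy. Among other sites 23.5% did (difference −7.60 points, interval −12.4 to −2.03 points). All 20 pairs joined different chromosomes, 11 had identical windows, and 11 were GΨG, 8 GΨC and 1 GΨA. Reads of identical windows may have been divided between the copies, since how reads with several matches were placed is not given in the sources used here.

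The gap ratios of the copies differed by less than 1 percentage point in 12 of the 20 pairs, and the absolute log2 ratio had a median of 0.25. Copies also had similar depth, with a median reads ratio of 1.26, and the part of depth in this was not tested. The Newcombe interval of the difference left out 0 in 2 pairs, which are also those with the most reads. The 6 pairs with the most reads are printed with the 3 central bases and every difference in capitals, each pair as 2 lines, the copy with more reads first.
chr17:38559932-38559952, plus strand: gttgggCctGTGaaggcccaa
chr14:8655089-8655109, minus strand: gttgggTctGTGaaggcccaa
chr5:32150250-32150270, plus strand: tcagcgaggGTGggctGgact
chr8:6277107-6277127, plus strand: tcagcgaggGTGggctCgact
chr4:1271950-1271970, minus strand: GtgtaggtgGTCtggtcattt
chr6:1267113-1267133, minus strand: TtgtaggtgGTCtggtcattt
chr5:36451067-36451087, plus strand: tttcgtcgtGTGgggttctgc
chr8:10182545-10182565, plus strand: tttcgtcgtGTGgggttctgc
chr17:7996297-7996317, plus strand: gtggagttgGTCcagcaaatg
chr5:2200892-2200912, minus strand: gtggagttgGTCcagcaaatg
chr7:2576468-2576488, minus strand: gagcgggaaGTGggccTggAc
chr8:16957762-16957782, plus strand: gagcgggaaGTGggccCggGc

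The chromosome 17 and 14 windows are both GΨG and differ by C7T, counted from 1 at the 5′ end, the chromosome 17 base first. In the pairing found by the search, character 7 lies across from a G, so the change would put a U·G wobble in place of a C-G pair. Whether either RNA folds this way was not tested, nor was the part of this change in the gap ratios. The gap ratio was 5.79% of 6165 reads on chromosome 17 and 3.27% of 5448 (178 gaps, interval 2.83 to 3.77%) on chromosome 14. The difference was 2.52 points (interval 1.77 to 3.28 points), and the fractions were 14.96 and 8.67%. The pair is a single comparison without replicate libraries, and other differences between the 2 transcripts were not examined.

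The chromosome 5 and 8 windows differ by G17C and had gap ratios of 4.46% (195 of 4369 reads) and 2.77% (66 of 2386 reads), a difference of 1.70 points (interval 0.76 to 2.57 points). The next 4 pairs were not separated. The pair on chromosomes 4 and 6 had 3.33 and 3.71% (difference −0.38 points, interval −1.36 to 0.59 points). The pair on chromosomes 5 and 8 with identical windows had 2.51 and 3.01%, that on chromosomes 17 and 5 had 3.22 and 3.92%, and that on chromosomes 7 and 8 had 6.48 and 6.20%. The GΨG site with the second most reads, on chromosome 11 at 8940641, had no listed copy and lay in a run of GGT and GTG repeats, with 162 gaps in 5783 reads (2.80%, interval 2.41 to 3.26%) and a fraction of 8.51%.

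**Figure D5:**
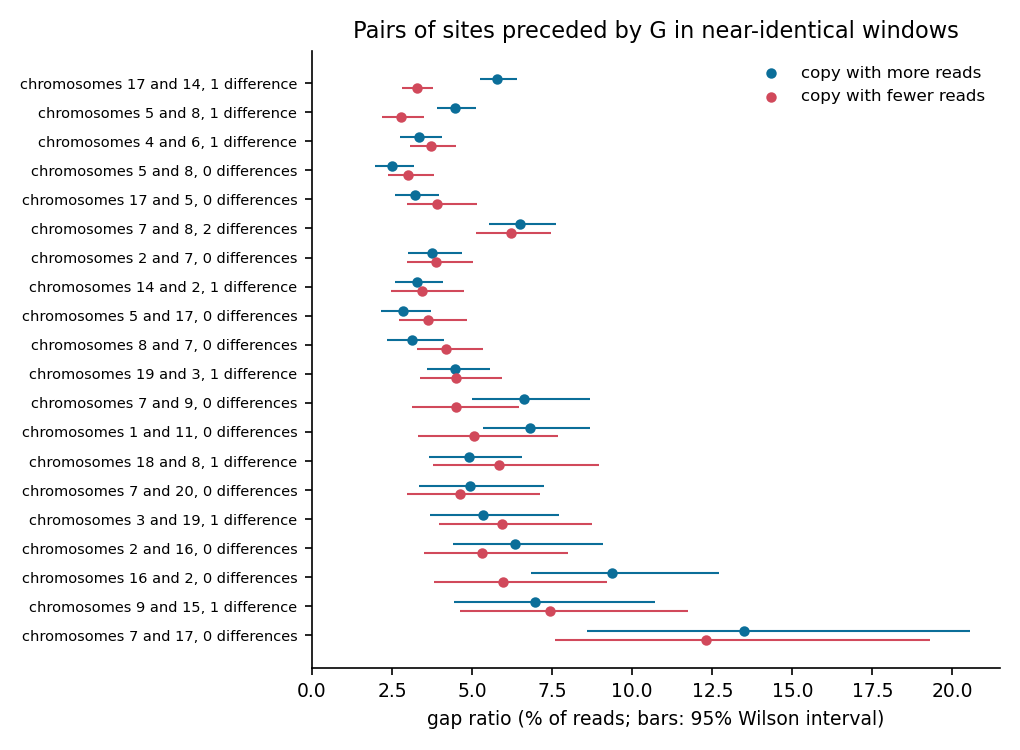
Gap ratios (percent of reads, with 95% Wilson intervals) of the 20 pairs of GΨ sites in near-identical windows, ordered by reads, with blue for the copy with more reads and red for the other. The intervals are apart in the 2 upper pairs, 5.79 against 3.27% and 4.46 against 2.77%, and overlap in the other 18.

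Some GΨ sites had another listed site close by. Within 1000 nucleotides on the same strand this was so for 29 of 252 (11.5%, interval 8.13 to 16.0%), near the 9.95% of other sites (interval 8.32 to 11.9%). The neighbour was CΨC in 13 cases, UΨC in 4, UΨG in 4, GΨG in 4, GΨC in 2 and CΨA or AΨA in 2. The chromosome 5 and 8 copies at 32150260 and 6277117 each had a CΨC site 103 nucleotides upstream. At both positions the chromosome 5 site had the higher gap ratio, with 4.46 against 2.77% at GΨG and 5.96 against 3.26% at CΨC.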

How the data were processed

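BID-seq was run by the authors on poly(A) RNA of soybean shoots, with 3 treated and 2 input libraries. Per the paper's methods, the authors detected sites with their published pipeline on Glycine_max_v2.1, summed gapped and non-gapped reads over replicates, and kept sites by a p-value based filter. The aligner and the thresholds are not given in the sources used here. The deposited list gives, for each site, the count of covering reads, the gap ratio before calibration, and the Ψ fraction that the authors derived from it with a calibration curve. The list does not state which libraries the count covers. The gap ratio times the count was whole within 0.01 at 1347 of 1347 sites, and this product was taken as the number of gapped reads. A second table of 2 value columns was not used, because each column name fits an input and a treated library equally.

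Log2 gap ratio and Ψ fraction (in percent) were fitted over all 1347 sites by least squares with HC3 errors in statsmodels 0.14.6 (Python 3.11.15, numpy 2.4.6, scipy 1.17.1), with 3-base context and a natural cubic spline of log10 reads (4 degrees of freedom). Contexts with under 10 sites were merged into 1 class. Tests were two-sided, and p-values were adjusted by Benjamini-Hochberg over 12 contrasts and, separately, over 16 terms for the bases at characters 9 and 13. The fits of log2 gap ratio were tested on simulated data with normal noise of equal spread at all sites. The simulation had no filter and did not cover the fits of Ψ fraction. Named sites were, by rule, the 3 with the most reads, the 5 with the highest gap ratio at 200 reads or more in GΨG and in GΨC, the 3 with the most reads in GΨA and in GΨU, and the 6 near-identical pairs with the most reads. Sites with a shared stretch, hairpins, neighbours and fractions over 50% were named after their values had been seen. Intervals of shares are Wilson intervals and those of differences Newcombe intervals, at 95%, and cover counting error only. The members and lists were chosen with earlier results of these data known. Alternatives were a minimum of 50 or 200 reads, a minimum fraction of 20%, depth deciles or no depth term, a linear or quasi-binomial scale for the gap ratio, 1 site per group of near-identical windows, and sites without a neighbouring U.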

Additional observations from a re-analysis of the deposited data

How the results depend on the processing

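Of 114 checks of the main results, 86 were counted as the same. For a fitted difference this meant the same direction and side of the threshold. For a number of sites or of called bases it meant a change within a fixed factor, whichever bases were called. For a share it meant a value inside the interval of the main share. With a minimum fraction of 20%, 132 GΨ sites were left, 43.9% of them GΨG, and the log2 gap ratio differences were −0.078 for GΨ against other sites, 0.20 for GΨG against GΨC and 0.034 for GΨG against UΨG. The fraction differences were then −1.87 points for GΨG against GΨC, 4.50 for GΨA against GΨG and GΨC, 0.78 for GΨG against UΨG and 1.54 for GΨC against CΨC, and log10 reads of GΨG against GΨC differed by −0.26, now past the threshold. This minimum acts on a value assigned from the gap ratio by context. It therefore cannot decide whether GΨG and GΨC differ in gap ratio or in reads. With no depth term the log2 gap ratio differences were −0.19 for GΨ against other sites, 2.51 for GΨA against GΨG and GΨC and −0.11 for GΨC against CΨC, and the fraction differences −2.39 points for GΨG against GΨC and 2.06 for GΨC against CΨC. The calls for GΨ against other sites and GΨC against CΨC in gap ratio and for GΨG against GΨC in fraction were lost. GΨA against GΨG and GΨC in log2 gap ratio was 0.20 with depth deciles, 0.033 in the quasi-binomial fit and 0.0046 without neighbouring U. The fraction of GΨC against CΨC was 0.031 points with deciles and 0.15 with 1 site per group of near-identical windows. GΨG against UΨG was −0.86 points of gap ratio on the linear scale, where its call was lost.

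Of the 8 flanking bases, 5 were called in fraction at 50 reads as over all sites, but with C in place of G at character 9, and the number otherwise went from 5 to 3 at 200 reads, 2 at a fraction of 20%, 2 with deciles, 3 with no depth term and 3 with near-identical windows counted once, and in gap ratio from 0 to 1 with no depth term (U at character 13, −0.44). Sign changes, none of them past the threshold, were U at character 9 in gap ratio (−0.020 at 50 reads, −0.034 without depth) and in fraction (−0.17 at 50 reads, −0.52 at 200 reads, −0.24 with deciles, −0.56 without depth). The others were C (0.023) and G (−0.00061) at character 13 in gap ratio at 200 reads, U at character 13 (0.11) at a fraction of 20%, and A at character 9 (0.13) and A at character 13 (3.03 points of fraction) without depth. The share of GΨG in the hairpin of 4 loop bases, an alternative chosen after seeing the data, was 4.90% with at least 6 pairs. The cause of these shifts was not tested.

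No paired analysis was possible because each site has only 1 value, summed over libraries, which also prevented leaving out a library. At a minimum of 50 or 200 reads GΨA had too few sites for a fit. Sites under 50 reads carry wide intervals, and the list shows no site that failed the filter.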
